A study of Malus x robusta with 27 samples.

Results

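HF38968, HF42215, HF20331, HF21131 and HF11756 are 5 apple genes with a Myb-like DNA-binding domain that the study named in connection with flower scent. They are 5 of the 48445 genes in the expression table, and they were taken by their identifiers over all 3 materials and 3 stages. HF38968, HF20331, HF21131 and HF11756 had been chosen by the study as transcription factors that differed between SF and WF or Mr and whose levels followed the content of a volatile, namely methyl benzoate for HF38968, linalool for HF20331, leaf acetate for HF21131 and methyl anthranilate for HF11756. The levels of these 4 genes over materials and stages are therefore described without a test. HF42215 stands in the running text of the study as BAMT, an enzyme that methylates benzoic acid, while the gene list and the heatmap of the study give that name to HF44215. The table annotates HF42215 as Myb-like and HF44215 as a SAM dependent carboxyl methyltransferase. HF42215 was therefore read as a slip for HF44215, which cannot be settled here. On that reading the levels of HF42215 chose nothing, and they were tested. If the running text is right, HF42215 was linked to methyl benzoate by its levels, and its tests are no separate support. The contents of the volatiles are not analysed here.

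The materials were SF, a strongly fragrant progeny individual of Malus × robusta, WF, a weakly fragrant progeny individual, and Mr, standard M. robusta. Individual whole flowers were taken at 3 stages: EB is labelled as the small balloon stage, and ES and LS are early and late flowering, before and after the anthers had opened. With 3 replicates in each of 9 groups this gave 27 RNA libraries, named here by material, stage and replicate. SF and WF are single trees, so a difference between them is one between individuals, and the p-values given measure the spread between these flowers. In whole flowers, fewer cells of a type and less RNA per cell cannot be told apart.

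MYB proteins form one of the largest families of plant transcription factors and bind DNA through MYB repeats. Members with a pair of repeats, the R2R3 class, include activators of phenylpropanoid and flavonoid genes, among them petunia ODORANT1, which controls precursors of benzenoid floral scent. Other classes carry a single repeat, with a coiled-coil domain in the MYB-CC type or in very short proteins in the RADIALIS-like type.

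The nearest Arabidopsis genes, as the study annotates them, put HF38968 with MYB40, an R2R3 protein, and HF11756 with MYB113, an R2R3 activator of anthocyanin synthesis in Arabidopsis. HF38968 lies on chromosome 17 (1214405 to 1215526, plus strand) with a gene length of 924 bases, and HF11756 on chromosome 5 (40935016 to 40937744, plus strand) with 1089 bases. HF20331, placed in the G2-like family, lies on chromosome 14 (6458001 to 6460014, plus strand), is 1287 bases long and is the member whose description also carries the MYB-CC LHEQLE motif, a feature of phosphate starvation response factors. HF21131, nearest to RAD-like 1, lies on chromosome 8 (2062043 to 2062309, minus strand). Its 267 bases span the locus without an intron, whereas the other 4 members span more of the genome than their gene length. HF42215 lies on chromosome 13 (2877904 to 2879614, minus strand) with 1131 bases. Coordinates are those of the apple HFTH1 assembly, and the 5 members lie on 5 different chromosomes.

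Values are FPKM, fragments per kilobase of gene scaled to the depth of the library. The libraries held 16146228 to 29558381 fragments on genes, and for a gene of 1 kb 3 fragments correspond to 0.095 to 0.193 FPKM. As a check of the tissue, of 60 genes with the K-box of plant MADS proteins, 40 to 46 had at least 1 FPKM in each library. Some libraries stood apart from their group. SF_EB_2 and SF_EB_1 correlated better with the SF_ES libraries than with the others of SF_EB (mean r of 0.967 against 0.953 for SF_EB_2), and WF_LS_2 and Mr_LS_1 likewise leaned to another group. SF_LS_1 held transcripts otherwise seen in WF at a median of 8.1% of their level in WF over 86 genes, and transcripts otherwise seen in Mr at 5.09% over 99 genes. Mr_LS_2 held those of WF at 16.1% over 149 genes and those of SF at 6.84% over 177 genes. Where leaving out SF_EB_2, SF_LS_1 or Mr_LS_2 moved a difference of a member that is printed here by over 1.5 times, the value without that library is given as well.

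All 5 members passed the filter of at least 1 FPKM in at least 3 libraries, as did 343 of the other 468 Myb-like genes. Their levels differed widely. Averaged over the 9 groups, HF42215 had 22.98 FPKM and ranked 72 among the 473 Myb-like genes of the table, HF38968 had 12.47 FPKM (rank 130), HF21131 had 4.83 FPKM (rank 222), HF11756 had 3.81 FPKM (rank 243) and HF20331 had 0.786 FPKM (rank 324). The ratio of the highest to the lowest group mean was 1.90 for HF42215, 5.04 for HF20331, 7.31 for HF21131 and 105 for HF38968. HF11756 was at or under 3 fragments in 6 WF libraries and in 3 Mr libraries, which leaves its ratio open-ended. In rank HF11756 stood 85 in SF_ES and 413 in WF_LS.

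**Figure D1:**
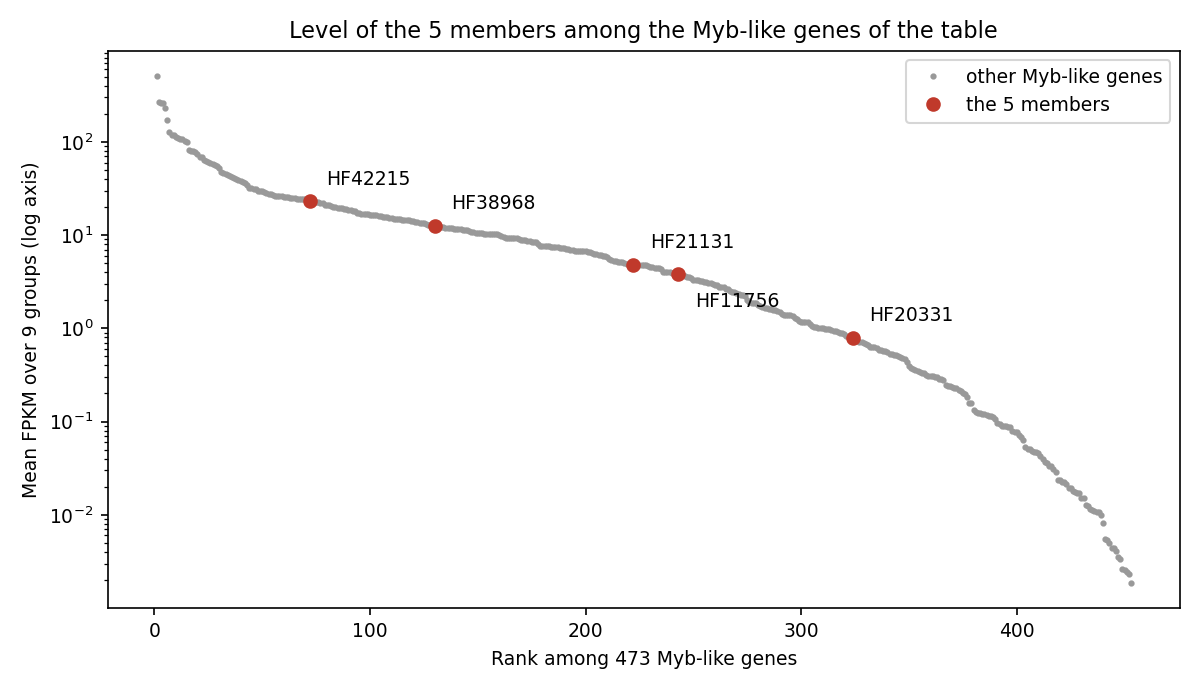
Mean FPKM over the 9 groups (y axis, log scale) against rank (x axis) for the 473 Myb-like genes, of which 20 are at 0 in every library and not drawn, with the 5 members as red points. HF42215 stands highest of the members at rank 72 and HF20331 lowest at rank 324.

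HF38968, the MYB40-like R2R3 gene, was low at EB and had levels over 8 FPKM in every library at ES. At EB it had 1.10, 10.6 and 1.20 FPKM in SF, against 0.303, 0.206 and 1.06 FPKM in WF and 0.249, 0 and 0.514 FPKM in Mr. All SF libraries lay above all WF and Mr libraries, but SF_EB_2 alone carried most of the SF mean of 4.30 ± 5.47 FPKM (SD, n = 3). The value of 0 in Mr_EB_2 allows up to 0.149 FPKM, the level of 3 fragments there. The log2 difference of SF minus WF at EB was 1.35 (SE 0.85), and 0.54 without SF_EB_2, and that of SF minus Mr was 1.61 (SE 0.83), and 0.80 without SF_EB_2.

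At ES, HF38968 had 35.2, 21.5 and 23.5 FPKM in SF, against 37.0, 20.4 and 8.87 FPKM in WF and 18.9, 17.2 and 14.4 FPKM in Mr. The SF libraries lay above those of Mr (log2 difference 0.61, SE 0.24) and overlapped with those of WF (0.44, SE 0.60), where leaving out WF_ES_3 gave -0.070. At LS it had 14.7, 15.8 and 29.1 FPKM in SF, against 5.51, 4.30 and 13.7 FPKM in WF and 19.8, 6.56 and 15.0 FPKM in Mr. The SF libraries again lay above those of WF, by 1.32 (SE 0.54) on the log2 scale and by 1.50 without SF_LS_1, with SF_LS_1 and the highest WF library less than 1 FPKM apart. SF and Mr overlapped at LS (0.55, SE 0.53, and 0.13 without Mr_LS_2). From group to group the order ran from SF_ES (26.8 ± 7.41 FPKM) to Mr_EB (0.255 ± 0.257 FPKM), and of its 8 steps only that between SF_EB and WF_EB separated neighbouring groups without overlap.

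Between stages, HF38968 was higher at ES than at EB in all 3 materials. Every ES library lay above every EB library of its material, with log2 differences of ES minus EB of 2.85 (SE 0.84) in SF, 3.76 (SE 0.61) in WF and 3.84 (SE 0.20) in Mr. Without SF_EB_2 the difference in SF was 3.66. LS and ES libraries overlapped in each material, with LS minus ES of -0.45 (SE 0.37, and -0.27 without SF_LS_1) in SF, -1.33 (SE 0.72) in WF and -0.38 (SE 0.45) in Mr, and of 0.041 in Mr without Mr_LS_2.

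HF11756, the MYB113-like gene, was the member with the widest gap between materials. At EB it had 0.197, 4.19 and 0.214 FPKM in SF, against 0, 0 and 0.0391 FPKM in WF and 0.106, 0.0845 and 0.0436 FPKM in Mr. These values rest on 4, 74 and 4 fragments in SF, on 0, 0 and 1 in WF and on 3, 2 and 1 in Mr, so SF_EB_2 held most of the signal at this stage. The summed fragments of SF over WF, scaled for depth, gave a ratio of 120.5 with an exact 95% interval of 21.0 to 4817 that covers counting error only. Without SF_EB_2, 8 fragments in SF stood against 1 in WF, a ratio of 17.1 (2.29 to 757.7). On the log2 scale SF minus WF was 0.95 (SE 0.70), and 0.25 without SF_EB_2, and SF minus Mr was 0.86 (SE 0.70), and 0.16 without SF_EB_2.

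At ES, HF11756 had 32.5, 13.6 and 13.3 FPKM in SF, against 1.58, 0.565 and 0.197 FPKM in WF and 3.46, 5.02 and 2.22 FPKM in Mr. The materials did not overlap at this stage, with SF above Mr and Mr above WF. The mean of 19.8 ± 11.0 FPKM in SF was 25.3 times the mean of 0.782 ± 0.718 FPKM in WF and 5.55 times that of 3.56 ± 1.40 FPKM in Mr (SD, n = 3 each). WF_ES_1 carried most of the WF mean, and the ratio to WF was 51.9 without WF_ES_1 and 17.2 without SF_ES_1. The log2 differences were 3.50 (SE 0.52, and 3.10 to 3.80 without single libraries) for SF minus WF, 2.11 (SE 0.48) for SF minus Mr and -1.39 (SE 0.42) for WF minus Mr.

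At LS, HF11756 had 9.49, 5.14 and 3.14 FPKM in SF, against 0, 0 and 0.0443 FPKM in WF and 4.09, 1.33 and 2.45 FPKM in Mr. In WF this was 1 fragment in all, where 0 in WF_LS_1 and WF_LS_2 allows up to 0.132 and 0.129 FPKM, against 356 fragments in SF, a depth-scaled ratio of 419.6 (exact 95% interval 74.8 to 16620). SF lay above WF by 2.67 (SE 0.39) on the log2 scale and by 2.31 without SF_LS_1, and the ratio was 281.9 (49.8 to 11210) without that library. SF and Mr overlapped (0.90, SE 0.51), with 0.55 without SF_LS_1 and 0.62 without Mr_LS_2. WF lay below Mr by a log2 difference of -1.76 (SE 0.33), and of -2.05 without Mr_LS_2.

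Over the stages, HF11756 was highest at ES in SF and WF, and in Mr the ES and LS libraries overlapped. ES minus EB was 3.28 (SE 0.81) in SF, or 3.99 without SF_EB_2, 0.74 (SE 0.33, and 0.43 without WF_ES_1) in WF and 2.04 (SE 0.26) in Mr, and the ES libraries lay above the EB libraries in each material. LS lay below ES in SF (-1.57, SE 0.56, and -1.92 without SF_LS_1) and in WF (-0.74, SE 0.33, and -0.43 without WF_ES_1). In the order of levels SF_ES stood apart from the next group, SF_LS, and WF_ES from Mr_EB, while the other 6 pairs of neighbours overlapped.

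HF20331, the MYB-CC gene, was the lowest of the members, with 1 to 43 fragments per library and at least 1 FPKM in 10 of the 27 libraries. At EB it had 1.0005, 1.15 and 0.994 FPKM in SF, against 0.362, 0.320 and 0.298 FPKM in WF and 0.269, 0.107 and 0.406 FPKM in Mr. All SF libraries lay above all others, and the SF mean of 1.05 ± 0.088 FPKM was 3.21 times that in WF and 4.02 times that in Mr. Without SF_EB_2 the log2 differences were 0.59 for SF minus WF and 0.67 for SF minus Mr. At this depth the EB values of single libraries carry wide counting intervals, for example 0.641 to 1.49 FPKM in SF_EB_1 and 0.174 to 0.667 FPKM in WF_EB_1 (exact Poisson, 95%).

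At ES, HF20331 had 1.43, 0.937 and 1.57 FPKM in SF, against 0.549, 0.649 and 0.458 FPKM in WF and 1.24, 0.499 and 1.16 FPKM in Mr. SF lay above WF (log2 difference 0.57, SE 0.14) and overlapped with Mr (0.25, SE 0.22). At LS it had 1.01, 1.53 and 0.541 FPKM in SF, against 0.0373, 0.762 and 0.600 FPKM in WF and 1.18, 0.967 and 1.19 FPKM in Mr. At this stage SF overlapped with WF (0.47, SE 0.31) and with Mr (-0.087, SE 0.21, and -0.14 without Mr_LS_2), while WF lay below Mr (-0.56, SE 0.24, and -0.61 without Mr_LS_2). The lowest value, in WF_LS_1, was a single fragment, with an interval of 0.000944 to 0.208 FPKM.

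In SF the 3 stages of HF20331 overlapped, with group means of 1.05, 1.31 and 1.03 FPKM at EB, ES and LS. In Mr they were 0.261, 0.965 and 1.11 FPKM, and the ES libraries lay above the EB libraries (log2 difference 0.62, SE 0.21). In WF they were 0.327, 0.552 and 0.466 FPKM, with ES above EB by 0.22 (SE 0.055). In the order of levels no neighbouring groups were free of overlap.

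HF21131 belongs with the RADIALIS-like proteins, a group named after a regulator of flower asymmetry in snapdragon. Its highest level was in SF at ES. At EB it had 3.21, 3.93 and 3.70 FPKM in SF, against 5.59, 6.64 and 6.38 FPKM in WF and 6.76, 7.24 and 2.67 FPKM in Mr. Here SF lay below WF, with means of 3.62 ± 0.364 FPKM in SF and 6.21 ± 0.548 FPKM in WF (log2 difference -0.64, SE 0.093, and -0.69 without SF_EB_2), and overlapped with Mr.

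At ES, HF21131 had 14.1, 13.2 and 12.7 FPKM in SF, against 7.12, 6.92 and 4.21 FPKM in WF and 2.78, 0.963 and 1.73 FPKM in Mr. The materials did not overlap, with SF above WF (1.04, SE 0.21), SF above Mr (2.39, SE 0.28) and WF above Mr (1.35, SE 0.34) on the log2 scale. The SF mean of 13.3 FPKM was 2.19 times that in WF and 7.31 times that in Mr. At LS it had 1.32, 1.61 and 2.61 FPKM in SF, against 0.899, 4.90 and 2.35 FPKM in WF and 3.05, 3.11 and 0.638 FPKM in Mr. The 3 materials overlapped at LS, on 3 to 28 fragments per library.

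Between stages, HF21131 had its highest mean at ES in SF and at EB in WF and Mr. In SF, ES lay above EB by 1.64 (SE 0.079) on the log2 scale, or by 1.69 without SF_EB_2, and LS lay below ES by a difference of -2.36 (SE 0.20), or of -2.22 without SF_LS_1. In WF, EB and ES overlapped (-0.050, SE 0.22), and so did LS and ES (-1.05, SE 0.52). In Mr the mean was highest at EB with 5.56 ± 2.51 FPKM, and ES and EB overlapped (-1.18, SE 0.46). SF_ES stood above the next group in the order, WF_EB, and the other 7 pairs of neighbouring groups overlapped.

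**Figure D2:**
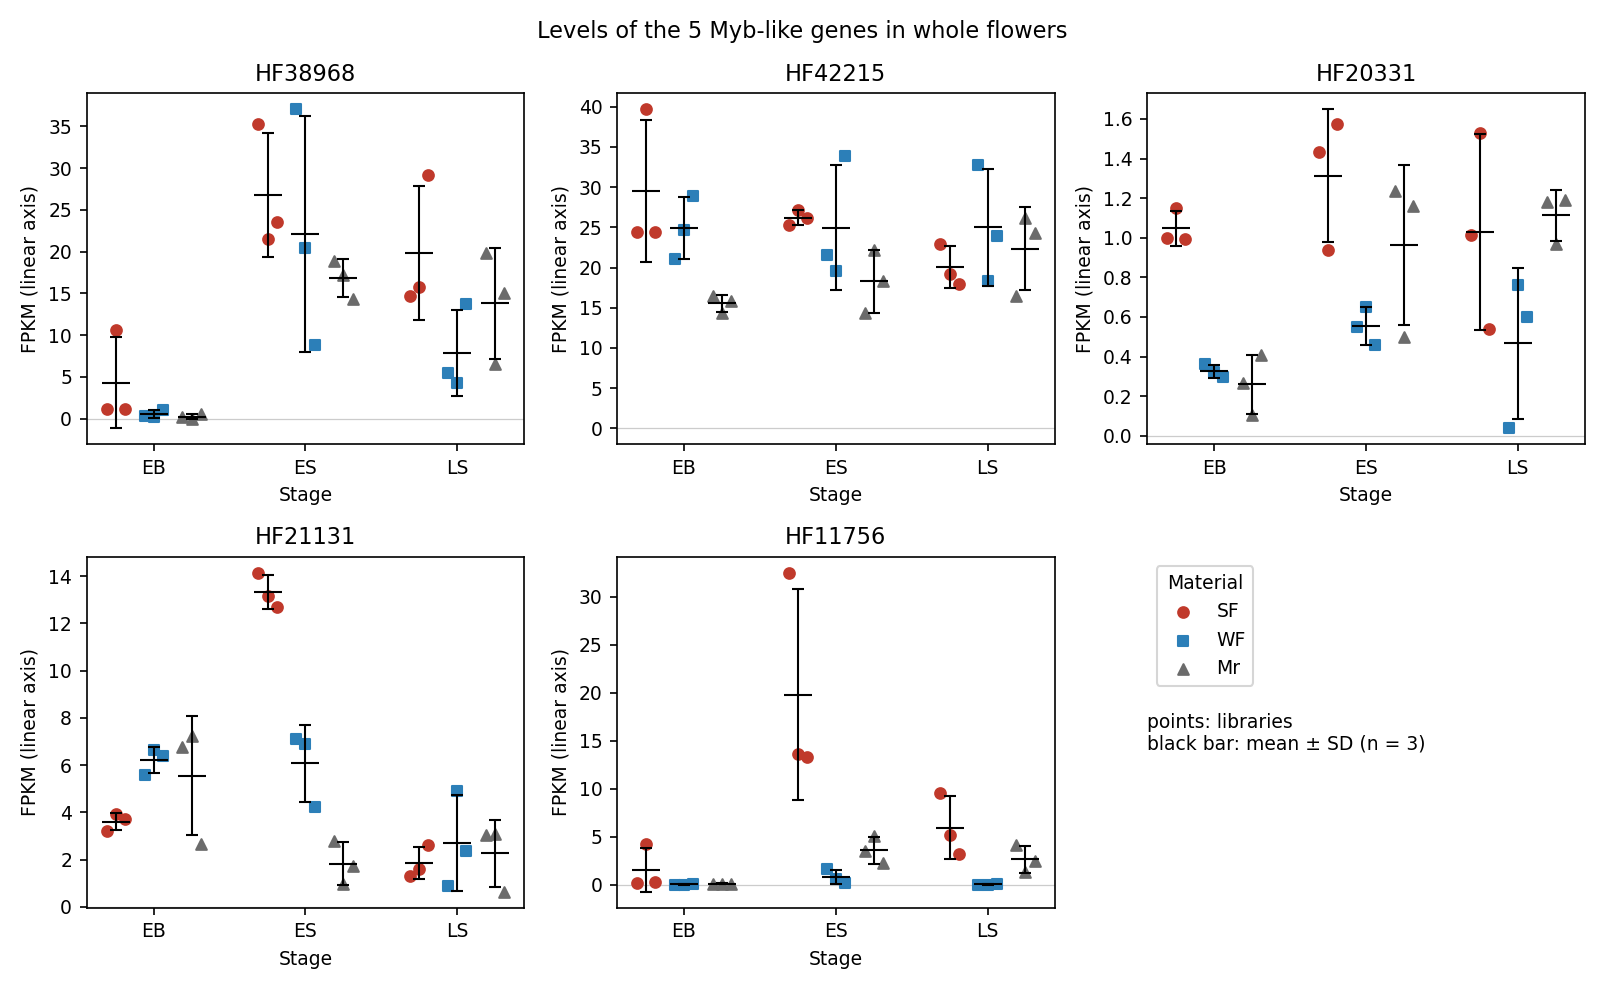
FPKM (y axis, linear) of each of the 5 genes by stage (x axis), with SF, WF and Mr side by side, a point for each library and black bars for the mean ± SD of 3 libraries. In HF21131 and HF11756 the 3 SF points at ES lie above all other points of that stage, in HF38968 and HF11756 SF_EB_2 stands far above the other EB libraries, and HF42215 varies least between groups.

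HF42215 was the member with the steadiest level and, among the 15 comparisons tested, passed in 3. At EB it had 24.4, 39.7 and 24.4 FPKM in SF, against 21.1, 24.7 and 28.9 FPKM in WF and 16.4, 14.4 and 15.8 FPKM in Mr. Both progeny individuals lay above Mr without overlap. It rose in SF relative to Mr (limma, log2 fold change 0.85, SE 0.20, adjusted p = 0.0198) and in WF relative to Mr (0.64, SE 0.13, adjusted p = 0.0111), comparisons in which limma called 41% and 35.3% of all 29660 genes tested in either direction. Without SF_EB_2 the first of these was 0.62 with an adjusted p of 0.00653, and it lost its call when any single Mr_EB library was left out (adjusted p of 0.059 to 0.074).

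At ES, HF42215 had 25.3, 27.1 and 26.2 FPKM in SF, against 21.5, 19.5 and 33.9 FPKM in WF and 14.4, 22.2 and 18.3 FPKM in Mr. SF was higher than Mr (log2 fold change 0.52, SE 0.15, limma adjusted p = 0.0446, higher in 3 of 3 SF libraries than in any Mr library), in a comparison with 35.6% of genes called. This call held with Mr_ES_2 left out (0.66, adjusted p = 0.0184) and with none of the other 5 libraries left out (adjusted p of 0.0808 to 0.107, fold change 0.36 to 0.54). WF at ES did not pass against Mr (0.41, SE 0.25, limma adjusted p = 0.274, with 24.9% of genes called), and its fold change was 0.18 without WF_ES_3 and 0.56 without WF_ES_2. At LS it had 23.0, 19.3 and 17.9 FPKM in SF, against 32.7, 18.3 and 24.0 FPKM in WF and 16.5, 26.2 and 24.3 FPKM in Mr, and all 3 materials overlapped.

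No comparison of SF with WF passed for HF42215. The log2 fold changes were 0.21 at EB (95% interval -0.34 to 0.75, adjusted p = 0.599), 0.11 at ES (-0.40 to 0.61, adjusted p = 0.844) and -0.27 at LS (-0.84 to 0.29, adjusted p = 0.687) in limma, against 7.59%, 8.14% and 3.35% of all genes called. The value at EB was -0.018 without SF_EB_2. Against Mr at LS the change was -0.13 in SF (limma adjusted p = 0.637, with 32.7% of genes called) and 0.14 in WF (adjusted p = 0.740, with 22.9% called). Single libraries moved these values, that in SF to -0.0079 without Mr_LS_2, -0.23 without SF_LS_1 and -0.33 without Mr_LS_1, and that in WF to 0.27 without Mr_LS_2. Between stages the largest change was LS against ES in SF, -0.38 (SE 0.11, limma adjusted p = 0.0641, with 19.3% of genes called), which passed with SF_LS_1 left out (-0.47, adjusted p = 0.0142). The other 5 changes between stages were between -0.13 and 0.27, with adjusted p of 0.350 or more in limma (ES against EB in SF was -0.13, and 0.098 without SF_EB_2, and LS against ES in Mr was 0.27, and 0.15 without Mr_LS_2), in comparisons with 0.964% of genes called for LS against ES in WF, 1.65% for ES against EB in WF and 41.9% for ES against EB in Mr. For ES against EB in SF and LS against ES in Mr limma called 0% of genes, with 5411 genes at an unadjusted p under 0.05 in SF and 4494 in Mr, while voom called 3 genes higher and 13 lower in SF and 0 in Mr. Of 6 tests of whether a change between stages differed between materials, 0 passed in limma. The lowest p was 0.0324 before and 0.187 after adjustment, for SF minus Mr between LS and ES (-0.65, SE 0.26). How many of all genes passed these 6 tests was not counted, so the 0 stands without a background.

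HF44215, which encodes the carboxyl methyltransferase and lies on chromosome 10 (9033270 to 9035030, minus strand), had another pattern. It had 228, 213 and 337 FPKM in SF at EB, against 473, 292 and 278 FPKM in WF and 202, 208 and 272 FPKM in Mr. Its group means at EB, ES and LS were 259, 188 and 82.9 FPKM in SF, 348, 144 and 41.3 FPKM in WF and 227, 97.8 and 75.6 FPKM in Mr. In SF it fell by 1.22 on the log2 scale at LS relative to ES (SE 0.24, limma adjusted p = 0.0281, with 19.3% of genes called), a call that held without SF_LS_1 (adjusted p = 0.0163) or SF_LS_3 and was lost without SF_LS_2 or any single SF_ES library (0.0591 to 0.103), without a filter (0.0717) and with all 9 groups in the fit (0.064). For HF44215 at LS relative to ES, the limma change in WF was -1.72 (SE 0.27, adjusted p = 0.0566, with 0.964% of genes called). In Mr it was -0.31 (SE 0.78, adjusted p = 0.898, with 0% called). The study linked BAMT to methyl benzoate through its transcriptome data. If that gene is HF44215, its levels had a part in the choice, and the tests of HF44215 are no separate support. HF42215 stayed between 15.6 and 29.5 FPKM over all its group means.

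For the 4 genes chosen by the study, the comparisons in which all libraries of a group lay on one side of the other group were counted. The shares of all tested genes that did so in the same direction are set beside the counts, and since these contrasts chose the genes, nothing is read from them. At EB, 3 of the 4 lay above WF in SF (16.8% of all genes) and 1, HF21131, below (15.6%), while 3 lay above Mr in SF (30%), with HF21131 overlapping. At ES, 3 lay above WF in SF (14.5%), with HF38968 overlapping, and 3 above Mr (26.4%), with HF20331 overlapping. At LS, 2 lay above WF in SF (11.6%), namely HF38968 and HF11756, and all 4 overlapped between SF and Mr, where 25.2% of all genes lay above and 25.6% below. In WF against Mr, HF11756 lay below Mr at all 3 stages (24.7%, 21.7% and 23% of genes), at EB on 1 fragment in WF and 6 in Mr, HF20331 below at LS and HF21131 above at ES (23.1%).

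Between stages, 3 of the 4 had all ES libraries above all EB libraries in SF (10.8% of genes), 3 in WF (14.8%) and 3 in Mr (30.3%). These were HF38968 and HF11756 in each material, with HF21131 as the third in SF and HF20331 as the third in WF and Mr. For LS against ES, 2 lay below in SF (22.4%), HF21131 and HF11756, and 1 in WF (16.3%), HF11756, while all 4 overlapped in Mr, where 10.6% of all genes lay above and 10.3% below.

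**Figure D3:**
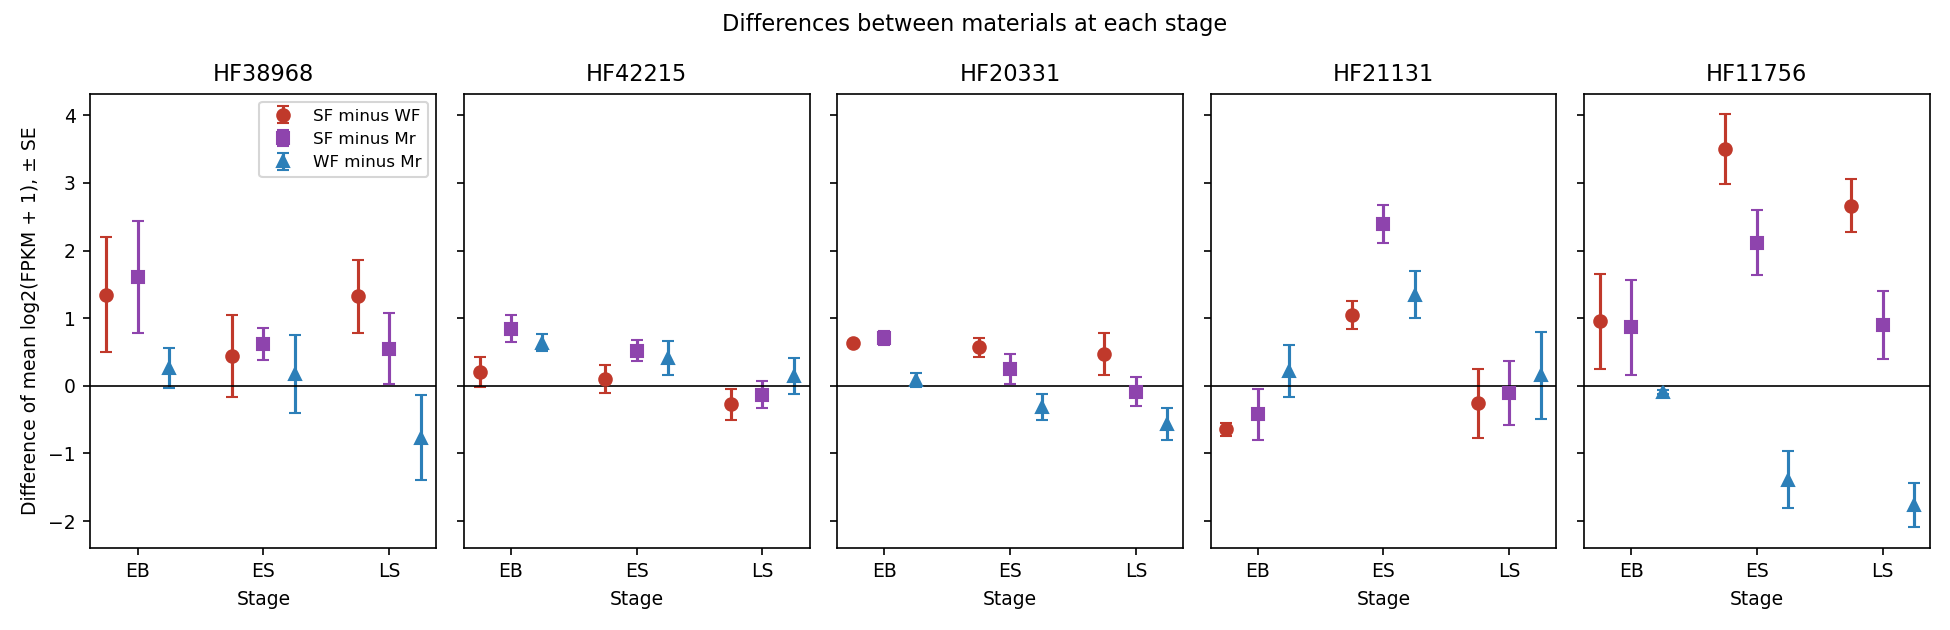
Difference of mean log2(FPKM + 1) ± SE (y axis) between materials at each stage (x axis), SF minus WF, SF minus Mr and WF minus Mr, from 3 libraries a group, with the SE of HF42215 from limma. HF11756 has the largest SF minus WF differences at ES and LS (3.50 and 2.67), and HF21131 is below 0 at EB (-0.64) and above 0 at ES (1.04) for SF minus WF.

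The members did not share a single pattern. Over the 27 libraries, 3 of the 10 pairs of members had a Pearson r of at least 0.5 on log2(FPKM + 1), a description in which libraries of a group are not independent. They were HF38968 with HF11756 (0.73), HF20331 with HF11756 (0.70) and HF38968 with HF20331 (0.58), and the other 7 pairs lay between -0.089 and 0.16. How common such an r is among pairs of other genes was not counted. When each library was taken as its deviation from its group mean, HF38968 and HF11756 still moved together (0.68), whereas HF20331 and HF11756 (0.14) and HF38968 and HF20331 (0.11) hardly did. Leaving out SF_EB_2, the library highest at EB for both HF38968 and HF11756, left their r over all libraries at 0.73. Their r over deviations was not taken without SF_EB_2, so how far the 0.68 rests on that library was not tested. HF42215 and HF21131 had an r of 0.047 over libraries and of -0.56 over deviations.

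The genes most like each member in pattern were taken by the same r. HF38968 was most like HF30515, an enzyme of fatty acid beta-oxidation by its 3-hydroxyacyl-CoA dehydrogenase and enoyl-CoA hydratase domains (r = 0.96, and 0.89 over deviations from group means). HF24832, a Dof zinc finger protein (0.95, and 0.67 over deviations), and HF09134, a tetratricopeptide repeat protein (0.95, and 0.84 over deviations), followed. HF30515 had 214, 509 and 196 FPKM in SF at EB, with SF_EB_2 high as in HF38968, and group means at EB, ES and LS of 307, 660 and 569 FPKM in SF, 150, 433 and 306 FPKM in WF and 149, 503 and 538 FPKM in Mr.

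HF11756 was most like a newly assembled gene without a description on chromosome 8 (22257018 to 22266557, r = 0.90) and another on chromosome 2 (32312208 to 32325084) with a GidA domain (0.87), and then HF02296, an AUX/IAA protein of the family of auxin response repressors (0.86). HF20331 was most like HF25885, an Hsp90 protein (0.84), followed by the same HF02296 (0.83) and by HF17454, a K-box protein (0.82). HF02296 had group means at EB, ES and LS of 5.55, 12.2 and 5.92 FPKM in SF, 0.308, 0.126 and 0.067 FPKM in WF and 0.151, 2.60 and 4.14 FPKM in Mr, so it was near 0 in every WF group. Over deviations from group means, its r was 0.65 with HF11756 and 0.42 with HF20331. On the same measure the newly assembled genes on chromosomes 8 and 2 had 0.78 and 0.60 with HF11756. HF25885 and HF17454 had 0.43 and 0.60 with HF20331.

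HF21131 was most like HF18675 (0.83), HF18059 (0.81) and HF19430, a subunit of the Arp2/3 complex (0.81), and these 3 had 0.30 to 0.43 over deviations. HF18675 is described both as a PP2A regulatory B subunit and as of the AUX/IAA family. HF18059 is described with both a homeobox and a Ras family domain. HF42215 was most like HF03851, a protein phosphatase 2C (0.85), HF25203, a family 17 glycosyl hydrolase (0.83), and HF18502, a chloroplast translocase (0.83), with 0.70 to 0.74 over deviations. HF03851 had its highest group mean in SF_EB (177 ± 36.9 FPKM) and its lowest in Mr_EB (59.2 ± 2.78 FPKM), as HF42215 did.

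**Figure D4:**
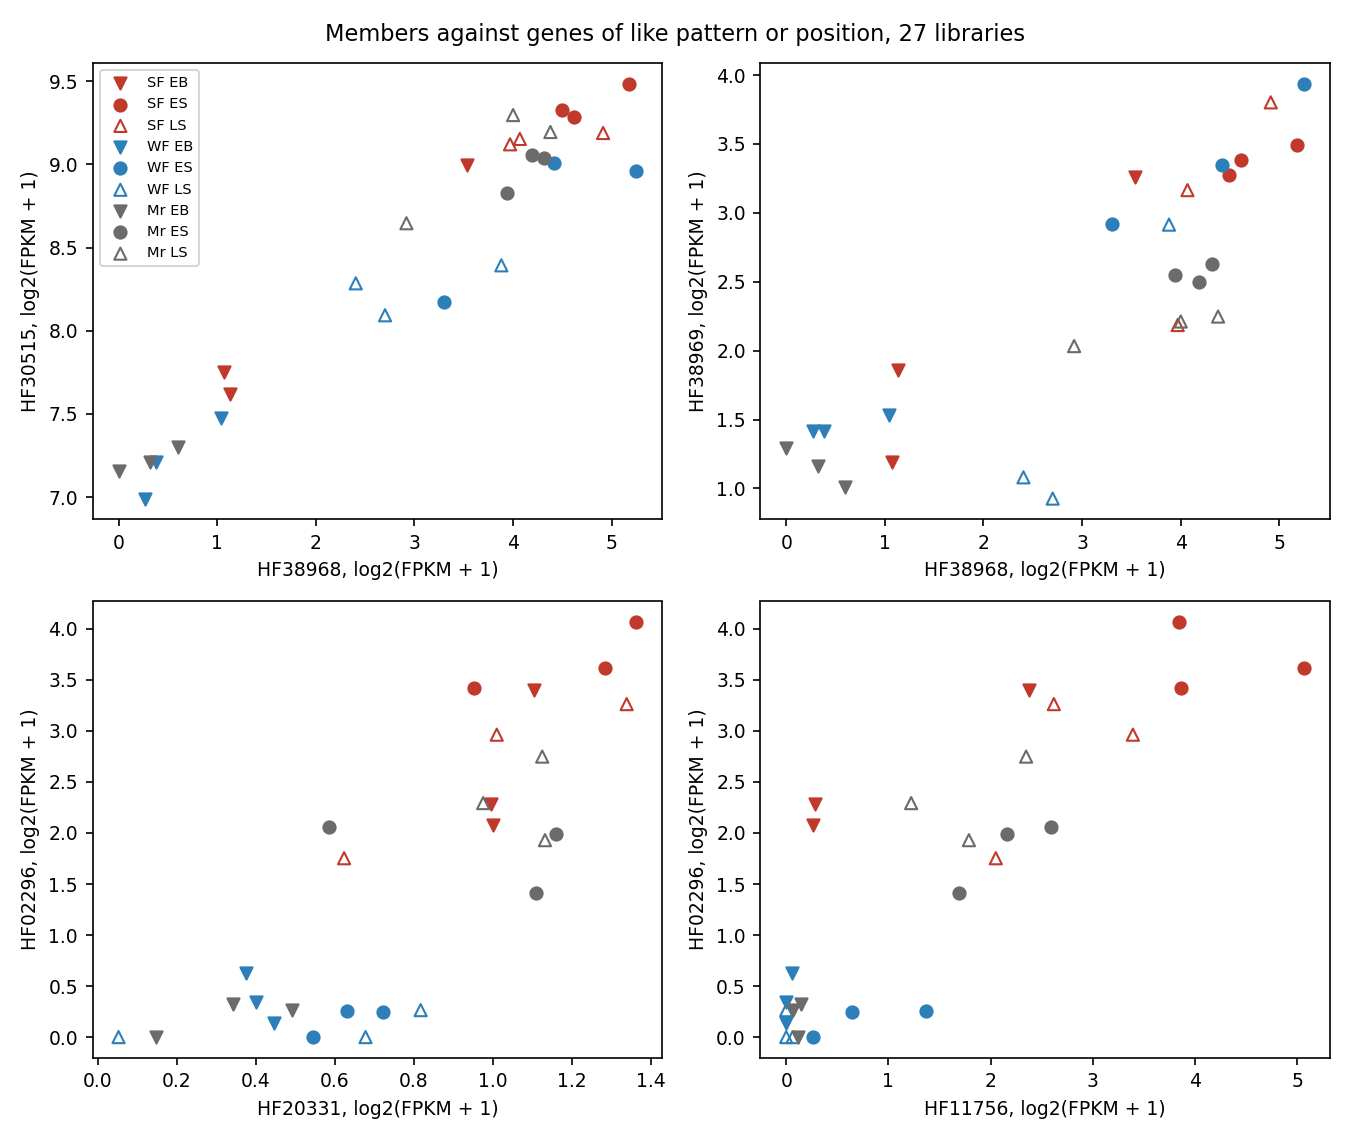
Each panel plots log2(FPKM + 1) of a member (x axis) against another gene (y axis) for the 27 libraries, coloured by material and marked by stage: HF38968 against HF30515 and its neighbour HF38969, and HF20331 and HF11756 against HF02296. HF38968 and HF30515 lie along a line (r = 0.96) with SF_EB_2 among the ES and LS libraries. The WF points and the Mr points of EB lie at the bottom of both panels of HF02296.

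Genes next to the members on the chromosome mostly did not follow them. Of 20 neighbours, 2 on each side of each member, 15 passed the filter on low values. Of these, 2 had an r of at least 0.5 with their member while the other 13 lay between -0.58 and 0.23. The share of all genes with such an r was not counted, so these counts stand without a background. HF38969, a RING finger gene 6558 bases from HF38968 and on the opposite strand, had an r of 0.85 with it. It had group means at EB, ES and LS of 4.16, 9.46 and 8.16 FPKM in SF, 1.74, 10.0 and 2.85 FPKM in WF and 1.24, 4.91 and 3.49 FPKM in Mr. HF38969 was singled out by its r, over these same libraries, with a member chosen for its pattern. Its tests are therefore no separate support. At ES it rose in SF relative to Mr (log2 fold change 0.82, SE 0.11, limma adjusted p = 0.00268, with 35.6% of all genes called). That call held without any single library and was lost with all 9 groups in the fit (adjusted p = 0.191). At ES relative to EB it rose in Mr (1.41, limma adjusted p = 0.000847, with 41.9% of all genes called). In WF it passed with all libraries (1.95, adjusted p = 0.0425, with 1.65% called) but with none of the 6 left out in turn (adjusted p of 0.0553 to 0.143).

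HF11755, an F-box gene 28069 bases from HF11756 and the one of its 4 neighbours with reads in every library, had an r of 0.72 with it. It had 6.96, 3.34 and 5.32 FPKM in SF at ES, against 2.34, 1.45 and 1.07 FPKM in WF and 2.53, 2.63 and 3.45 FPKM in Mr. It did not pass against WF (1.23, SE 0.29, limma adjusted p = 0.0573, with 8.14% of all genes called) or Mr (0.64, SE 0.24, adjusted p = 0.0878, with 35.6% called). Both passed with all 9 groups in the fit (adjusted p of 0.0013 and 0.0456), as did SF against Mr without SF_ES_2 (0.88, adjusted p = 0.0233). HF11755 too was singled out by its r with a member chosen for its pattern, so these tests are no separate support. The directly adjoining genes of HF11756, a newly assembled gene and HF11757, did not pass the filter, and HF11757 was at 0 in every library, as was HF20332 beside HF20331.

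The genes that could form a background for the members behaved as follows in limma. Of the other Myb-like genes, 343 tested, 6 were higher and 2 lower in SF than in WF at ES (median log2 fold change 0.022), against 8.14% of all genes called in either direction (median -0.0020), and 58 were higher and 49 lower in SF than in Mr at ES (median 0.045), where 35.6% of all genes were called. At LS, 0 of them passed between SF and WF, against 3.35% of all genes called, and voom likewise called 0 of them. At an unadjusted p under 0.05 stood 24 of them and 4458 of all 29660 genes. The 8 calls against WF at ES became 3 without SF_ES_3 or WF_ES_3 and 5 without SF_ES_1 or SF_ES_2, and the 107 against Mr became 70 without SF_ES_1. Of 43 homologues of enzymes on the routes to the same 4 volatiles that the study listed, 42 were tested. Of these, 4 were higher and 1 lower in SF than in WF at EB (7.59% of all genes called), 5 higher and 0 lower at ES (median log2 fold change 0.18, with 8.14% of all genes called), and 2 higher and 0 lower at LS (3.35% of all genes called). Here voom called 6 at ES and 1 at LS, all higher. Against Mr, 12 were higher and 9 lower in SF at EB (41% of all genes called), 10 and 7 at ES (median 0.16, against 0.0096 over all genes, with 35.6% called), and 6 and 12 at LS (32.7% called). Single libraries moved these counts: the 5 calls against WF became 2 at EB without SF_EB_2 or WF_EB_2 and 3 without WF_EB_1 or WF_EB_3, and 3 at ES without SF_ES_1 or SF_ES_2. The 2 at LS became 0 without SF_LS_2, WF_LS_1 or WF_LS_3 and 1 without SF_LS_1. Against Mr, the 21 at EB became 10 without Mr_EB_1 and 12 without Mr_EB_3, and the 17 at ES became 11 without SF_ES_1.

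Of these 42 genes, 2 passed against both WF and Mr at ES. The share of all genes that passed both was not counted, so nothing is read from this number. HF12196, a terpene synthase listed for linalool, the volatile to which HF20331 was related, had 18.5, 28.7 and 33.3 FPKM in SF, against 5.24, 4.48 and 5.45 FPKM in WF and 2.50, 2.51 and 9.06 FPKM in Mr. Its log2 fold change was 2.16 (SE 0.23, adjusted p = 0.00408) for SF against WF and 2.44 (SE 0.46, adjusted p = 0.00956) for SF against Mr. HF41298, a DXR of the plastid pathway to terpene precursors, averaged 49.3 ± 1.59 FPKM in SF, 29.3 ± 0.101 FPKM in WF and 19.5 ± 1.36 FPKM in Mr, with log2 fold changes of 0.73 (adjusted p = 0.00329) and 1.30 (adjusted p = 0.000223). Both genes passed against WF and Mr in each of the 13 alternatives run for either comparison. Of 28 chalcone genes, which belong to the flavonoid branch that MYB113-type proteins act on in Arabidopsis, 15 were tested, and at ES 2 were higher and 0 lower in SF than in WF (median 0.32, with 8.14% of all genes called, and 1 called without SF_ES_1, SF_ES_2, WF_ES_1 or WF_ES_2), and 2 higher and 8 lower in SF than in Mr (median -0.47, with 35.6% of all genes called).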

How the data were processed

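RNA of whole flowers was sequenced as paired-end reads of 150 bp on an Illumina sequencer. The authors mapped the reads to apple HFTH1 and deposited FPKM per gene. StringTie 1.3.3b and DESeq2 1.16.1 stand in the submitters' processing notes, while the sources used here name neither aligner nor counting tool. Fragments were recovered from FPKM, gene length and the step of each library (of the 771080 values below 1000 fragments, 100% came within 0.05 of whole). For HF genes 98.1% of lengths are multiples of 3, as coding lengths are. The denominators of FPKM were 0.886 to 1.103 times the fragments on genes.

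HF42215, the neighbours and the gene lists were tested in limma 3.58.1 (R 4.3.3) on log2(FPKM + 1), a scale that understates the change of low genes, each fit holding just the pair of groups compared, with Benjamini-Hochberg adjustment over 29660 genes with FPKM of at least 1 in at least 3 libraries. An adjusted p under 0.05 was a call. The fits were tested on simulated data. Other members got means, SD, differences of mean log2(FPKM + 1) and overlap of libraries. Intervals and limits at 0 cover counting error only. Named genes were the members, HF44215, the 3 most alike genes and 2 neighbours on each side of each member, and volatile genes passing against both WF and Mr at ES. The members, lists and tests were chosen with earlier results of these data known. Alternatives were a pseudocount of 0.1, scaling by total fragments, no filter, a filter of 9 libraries, a replicate block, voom, 1 fit over all 9 groups and each library left out. Python 3.11.15, numpy 2.4.6, pandas 2.3.3, scipy 1.17.1 and matplotlib 3.10.9 were used. Volatile contents are not analysed here.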

Additional observations from a re-analysis of the deposited data

Results flagged for a closer look

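HF21131 went in opposite directions in SF relative to WF at neighbouring stages. At ES the 3 SF libraries lay above the 3 WF libraries by a log2 difference of 1.04 (SE 0.21), and at EB the 3 SF libraries lay below the 3 WF libraries (-0.64, SE 0.093). The difference between the stages was not tested, since the gene had been chosen for its pattern over these groups. The values rest on 57 to 88 fragments in SF and 21 to 43 in WF at ES, and on 16 to 17 fragments in SF and 32 to 56 in WF at EB.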

How the results depend on the processing

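Of the 4 members without a test, differences whose libraries did not overlap changed sign in 0 of 256 alternative values and those that overlapped in 18 of 224. Without overlap, leaving out a library or changing the pseudocount cannot change the sign. Only the values scaled by total fragments could have done so, and nothing is read from the others. Of these 480 values, 29 moved by more than the spread between replicates, all with a pseudocount of 0.1, at which HF11756 for SF minus WF was 4.71 at ES and 5.60 at LS. With so few libraries a group, leaving out a library cannot move a difference that far, so the count says nothing about single libraries. For example, HF11756 for SF minus WF at EB went from 0.95 to 0.25 without SF_EB_2 and was not counted as moved. Of 60 alternative likeness values 13 moved, those over deviations from group means. Leaving out SF_EB replicate 2 or using these deviations was chosen after seeing the data.

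For HF42215, SF against Mr at EB (0.85) lost its call without a filter (adjusted p = 0.0552), and SF against Mr at ES (0.52) did so without a filter (0.101) and with all 9 groups in the limma fit (0.0909). WF against Mr at EB passed in every alternative (adjusted p 0.00492 to 0.0464). Over all alternatives the adjusted p was 0.00645 to 0.0740 for SF against Mr at EB and 0.0184 to 0.107 at ES. Scaling by total fragments turned WF at LS against ES to -0.047. Without single libraries its changes ranged from 0.62 to 0.96 (SF_EB vs Mr_EB), -0.018 to 0.32 (SF_EB vs WF_EB, below 0 without SF_EB_2), 0.36 to 0.66 (SF_ES vs Mr_ES), -0.044 to 0.34 (SF_ES vs WF_ES, below 0 without WF_ES_2), -0.24 to 0.098 (SF_ES vs SF_EB), -0.47 to -0.30 (SF_LS vs SF_ES), -0.26 to 0.12 (WF_ES vs WF_EB), -0.063 to 0.34 (WF_LS vs Mr_LS), -0.20 to 0.24 (WF_LS vs WF_ES), 0.18 to 0.56 (WF_ES vs Mr_ES), -0.47 to -0.068 (SF_LS vs WF_LS), -0.33 to -0.0079 (SF_LS vs Mr_LS), 0.059 to 0.35 (Mr_ES vs Mr_EB), 0.12 to 0.47 (Mr_LS vs Mr_ES) and 0.53 to 0.75 (WF_EB vs Mr_EB).

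Of the volatile genes, 5 called between SF and WF at EB became 2 without a filter, 3 with the strict filter and 8 with all groups in the fit, and 2 at LS became 0 without a filter, 6 with all groups and 1 with voom. Without single libraries these counts ran from 2 to 4 at EB, 3 to 6 at ES and 0 to 2 at LS, and against Mr from 10 to 21 at EB and 11 to 16 at ES. Myb-like genes called at ES, 8 against WF, were 15 with all groups and 3 to 7 without single libraries, and against Mr 70 to 96. Chalcone genes against WF at ES were 1 without a filter, 1 with all groups and 1 to 2 without single libraries. The cause was not tested.

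Same-numbered libraries correlated by -0.64 to 0.55 in their deviations from group means, and in 0 of 15 comparisons did all 3 pairs exceed 0.1. The labels do not say whether equal numbers pair samples, and with 3 libraries a group this check cannot decide it. With the replicate block HF42215 lost its calls for SF against Mr at EB (0.85, adjusted p = 0.0555) and ES (0.52, adjusted p = 0.0709), as did HF38969 at ES against EB in WF (0.161) and HF44215 at LS against ES in SF (0.069), and the counts were 2 and 0 volatile genes against WF at EB and LS, 10 against Mr at ES, and 59 Myb-like genes against Mr at ES. Values of HF20331, with 1 to 43 fragments, are limited by depth.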
